A study of Mus musculus with 6 samples.

Results

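Heme is the iron-porphyrin group of cytochromes, catalase and many other proteins. Its synthesis starts in mitochondria with ALAS1, the rate-limiting enzyme outside the red cell lineage, continues in the cytosol through enzymes that include ALAD, UROS and UROD, and ends in mitochondria with CPOX, PPOX and FECH, which inserts the iron. Heme oxygenases (HMOX1, which is inducible, and HMOX2, which is constitutive) open the ring and release iron, carbon monoxide and biliverdin, and the biliverdin reductases BLVRA and BLVRB reduce biliverdin to bilirubin. Iron released from heme can feed the iron-dependent lipid peroxidation that defines ferroptosis, the form of cell death that erastin triggers.

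The genes described are 9 enzymes of this route, Alas1, Alad, Urod, Cpox and Fech for synthesis and Hmox1, Hmox2, Blvra and Blvrb for breakdown. They were picked by symbol from the 43346 genes of the deposited count table, and all 9 were among the 14000 genes with enough reads to be tested. RNA came from primary mouse embryonic fibroblasts (MEFs) of strain C57BL/6 at passage 9, treated for 24 h with 3 µM erastin, an inhibitor of the cystine/glutamate antiporter, or with DMSO, the solvent. Both groups were grown in medium with fetal bovine serum and 2-mercaptoethanol, and each had 3 libraries of ribosome-depleted total RNA, sequenced on an Ion Proton instrument. The experiment was done in triplicate, but the labels do not say whether replicates were separate cultures or embryo pools, so p-values measure the spread between these libraries.

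The DMSO libraries totalled 13333911 to 18505571 counts, the erastin libraries 16800789 to 20509970. A level of 3 counts, taken as the floor, equalled 0.140 to 0.234 CPM (each gene's reads relative to the library's scaled total), and no heme enzyme had fewer than 166 reads in a library. All 10 fibroblast markers were detected, summing to 35433 to 38496 CPM under DMSO against 25455 to 26901 CPM under erastin, and 8 of them were lower with erastin. Of 8 erythroid markers, Hba-a2, Hbb-bs and Hbb-bt had 0 reads, and the list summed to at most 0.838 CPM in any library. Of 7 macrophage markers 6 had reads (Cd163 had 0), summing to 23.2 to 44.5 CPM under DMSO and 27.0 to 58.1 CPM under erastin, and 0 of the 6 tested passed. Cd68 and Lyz2 came near passing, at 2.08-fold and 1.64-fold higher (edgeR adjusted p = 0.0548 and 0.0578). Ptprc, Adgre1, Csf1r and C1qa had negative log2 fold changes (edgeR adjusted p of 0.268 to 0.941). Endothelial markers summed to 4.66 to 7.10 CPM under DMSO and 13.2 to 16.4 CPM under erastin, with Kdr and Tek higher (log2 fold changes of 1.38 and 1.45), while Pecam1 and Cdh5 had means of at most 0.372 CPM. The part of these shifts in the results below was not tested, and in bulk RNA fewer cells of a type cannot be told apart from less RNA per cell.

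Along the route, erastin-treated MEFs had far more Hmox1 transcript, about 1.5 times as much Alas1, about 1.7 times as much Cpox, and less Fech. Differences were tested with edgeR's quasi-likelihood test and Benjamini-Hochberg adjustment over all 14000 genes, and a gene passed at an adjusted p-value under 0.05. Of the 9 enzymes 5 passed, 3 higher (Hmox1, Alas1 and Cpox) and 2 lower (Fech and Blvra), while 43.1% of all genes tested passed, 21.6% higher and 21.5% lower. In the same 5 genes the 3 erastin libraries lay on one side of the 3 DMSO libraries, as did 52.5% of all genes (26.7% with erastin higher, 25.8% with erastin lower). The number of enzymes that changed was therefore close to the share across the transcriptome. The median log2 fold change of the 9 enzymes was 0.091, against -0.0014 for all genes tested.

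**Figure D1:**
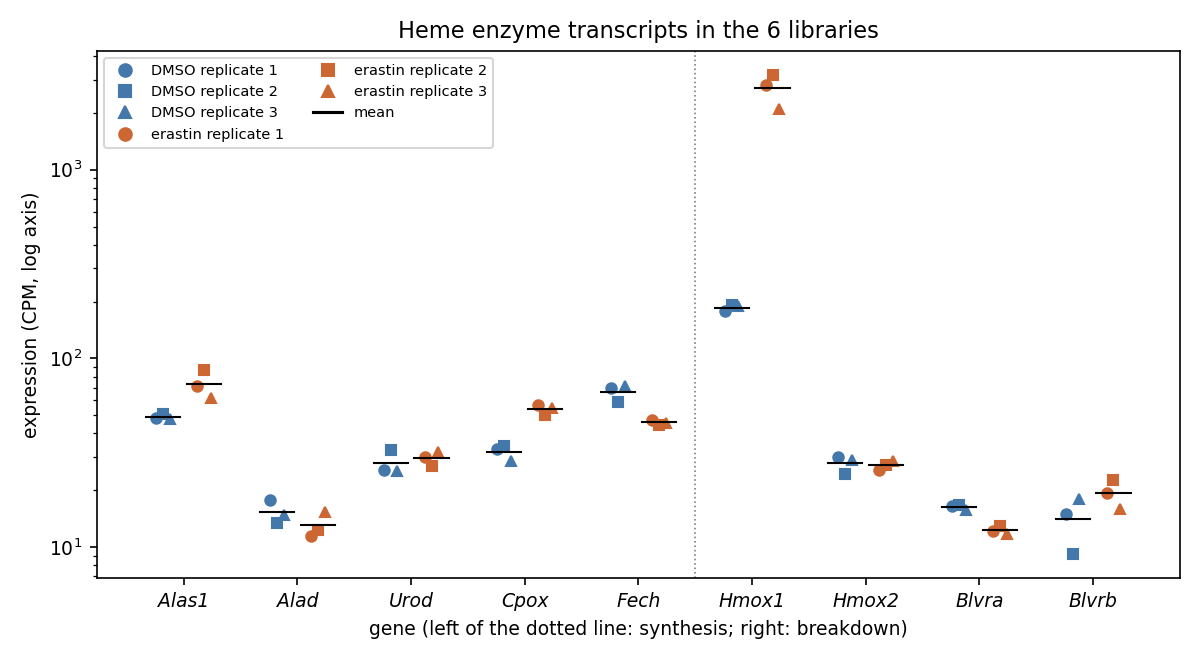
Expression of the 9 heme enzymes in CPM on a log axis, with 1 point per library (colour for treatment, shape for replicate) and black lines at the group means. The Hmox1 points lie at 178 to 191 CPM under DMSO and at 2103 to 3190 CPM under erastin, while the ranges of Hmox2, Alad, Urod and Blvrb overlap between groups.

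Hmox1 (ENSMUSG00000005413.7, chr8:75093621-75100589 on the plus strand of GRCm38) encodes the stress-inducible heme oxygenase. It stood at 178, 191 and 189 CPM in DMSO replicates 1, 2 and 3, and at 2816, 3190 and 2103 CPM in erastin replicates 1, 2 and 3. Every erastin library was far above every DMSO library, with erastin replicate 2 highest and replicate 3 lowest. The fold was 14.6 (95% interval 12.3 to 17.2), or 3.86 on the log2 scale, with an edgeR adjusted p of 8.29e-11. Only 25 of the 14000 genes had a larger log2 fold change, so that Hmox1 ranked 26, and it ranked 2 by p-value. Its share of all counts went from 0.0176 to 0.0186% under DMSO to 0.215 to 0.317% under erastin.

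Hmox2 (ENSMUSG00000004070.11, chr16:4726361-4766742, plus strand), the constitutive heme oxygenase, had 30.1, 24.3 and 29.0 CPM in the DMSO replicates and 25.5, 27.3 and 28.7 CPM in the erastin replicates. The groups overlapped fully. Its log2 fold change was -0.030 with a 95% interval of -0.30 to 0.24 (edgeR adjusted p = 0.873). This interval allows a change of 0.812 to 1.18 times, and the sign of so small a value flipped with scaling by total count (0.034). Exons of Cdip1 on the opposite strand cover 40.2% of the exonic bases of Hmox2. Whether counting used the strand is not given in the sources used here, so the level and the change of Hmox2 are uncertain.

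Blvra (ENSMUSG00000001999.11, chr2:127070665-127097084, plus strand), which reduces biliverdin IX-alpha to bilirubin, fell slightly. It measured 16.5, 16.7 and 15.8 CPM in DMSO and 12.1, 13.0 and 11.7 CPM in erastin replicates, so the groups did not overlap. The fold was 0.749 (95% interval 0.595 to 0.944, log2 fold change -0.42, SE 0.16, edgeR adjusted p = 0.0430). This call was marginal: the edgeR adjusted p was 0.0885 with scaling by total count and 0.131 without the filter on low counts, and in the 6 fits that each left out 1 of the DMSO or erastin libraries it was 0.0511 to 0.110, with log2 fold changes of -0.46 to -0.38.

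Blvrb (ENSMUSG00000040466.11, chr7:27447978-27466144, plus strand), a flavin reductase that also reduces biliverdin IX-beta, had the largest standard error of the 9 log2 fold changes (0.22). DMSO replicates 1, 2 and 3 had 15.0, 9.20 and 18.1 CPM, and erastin replicates had 19.2, 22.7 and 15.9 CPM. Erastin replicate 3 lay below DMSO replicate 3, and the difference did not pass (log2 fold change 0.46, 95% interval -0.0074 to 0.93, edgeR adjusted p = 0.106). Without DMSO replicate 3 it passed as higher (log2 fold change 0.68, edgeR adjusted p = 0.0207), and without DMSO replicate 2 it was 0.22. It also passed after an offset for GC content and transcript length (0.60, edgeR adjusted p = 0.0356), after this offset with the replicate number as a block (0.62, edgeR adjusted p = 0.0347) and without the filter on low counts (0.48, edgeR adjusted p = 0.0342), which makes 4 of the 15 alternatives.

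Alas1 (ENSMUSG00000032786.10, chr9:106233455-106248654, minus strand) encodes the first and rate-limiting enzyme, whose expression heme represses. DMSO replicates had 48.1, 50.7 and 47.8 CPM, and erastin replicates had 71.5, 87.3 and 61.5 CPM. The DMSO libraries were close together and all erastin libraries were higher, with replicate 2 highest and replicate 3 lowest, as for Hmox1 and Blvrb. Alas1 rose 1.50-fold (95% interval 1.27 to 1.78, log2 fold change 0.59, edgeR adjusted p = 0.000819). An antisense transcript, 4930500F10Rik, shares 7.53% of its exonic bases.

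Alad (ENSMUSG00000028393.6, chr4:62509169-62519918, minus strand), which joins a pair of 5-aminolevulinate molecules into porphobilinogen, had 17.8, 13.5 and 14.9 CPM in DMSO and 11.5, 12.3 and 15.4 CPM in erastin replicates. The ranges overlapped and the difference did not pass (log2 fold change -0.23, 95% interval -0.62 to 0.15, edgeR adjusted p = 0.321). Urod (ENSMUSG00000028684.10, chr4:116989965-116994413, minus strand), which decarboxylates uroporphyrinogen, had 25.5, 32.6 and 25.2 CPM in DMSO and 30.1, 26.8 and 32.0 CPM in erastin replicates. It did not pass either (log2 fold change 0.091, 95% interval -0.20 to 0.38, edgeR adjusted p = 0.622). The intervals allow a change of 0.653 to 1.11 times for Alad and 0.873 to 1.30 times for Urod.

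Cpox (ENSMUSG00000022742.5, chr16:58670292-58717636, plus strand) encodes the enzyme that makes protoporphyrinogen from coproporphyrinogen in the mitochondrial intermembrane space. It rose from 33.1, 34.5 and 28.6 CPM in the DMSO replicates to 56.5, 49.9 and 54.5 CPM in the erastin replicates. The groups were well apart, and the fold of 1.67 (95% interval 1.43 to 1.96, log2 fold change 0.74, edgeR adjusted p = 5.6e-05) was the largest among the 5 synthesis enzymes. Unlike for Alas1, the erastin replicate 2 value was the lowest of its group. Gpr15 on the opposite strand shares 3.06% of the exonic bases of Cpox.

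Fech (ENSMUSG00000024588.8, chr18:64452914-64490251, minus strand), the ferrochelatase that inserts ferrous iron into protoporphyrin, fell. It had 69.3, 59.1 and 71.0 CPM in the DMSO replicates and 47.4, 44.5 and 45.7 CPM in the erastin replicates, which lay close together below all DMSO values. The fold was 0.691 (95% interval 0.598 to 0.798, log2 fold change -0.53, edgeR adjusted p = 0.000441). The first and the last enzyme of the route thus changed in opposite directions. Hmox1, Alas1, Cpox and Fech each passed in all 15 alternative analyses, 6 of which left out 1 library.

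**Figure D2:**
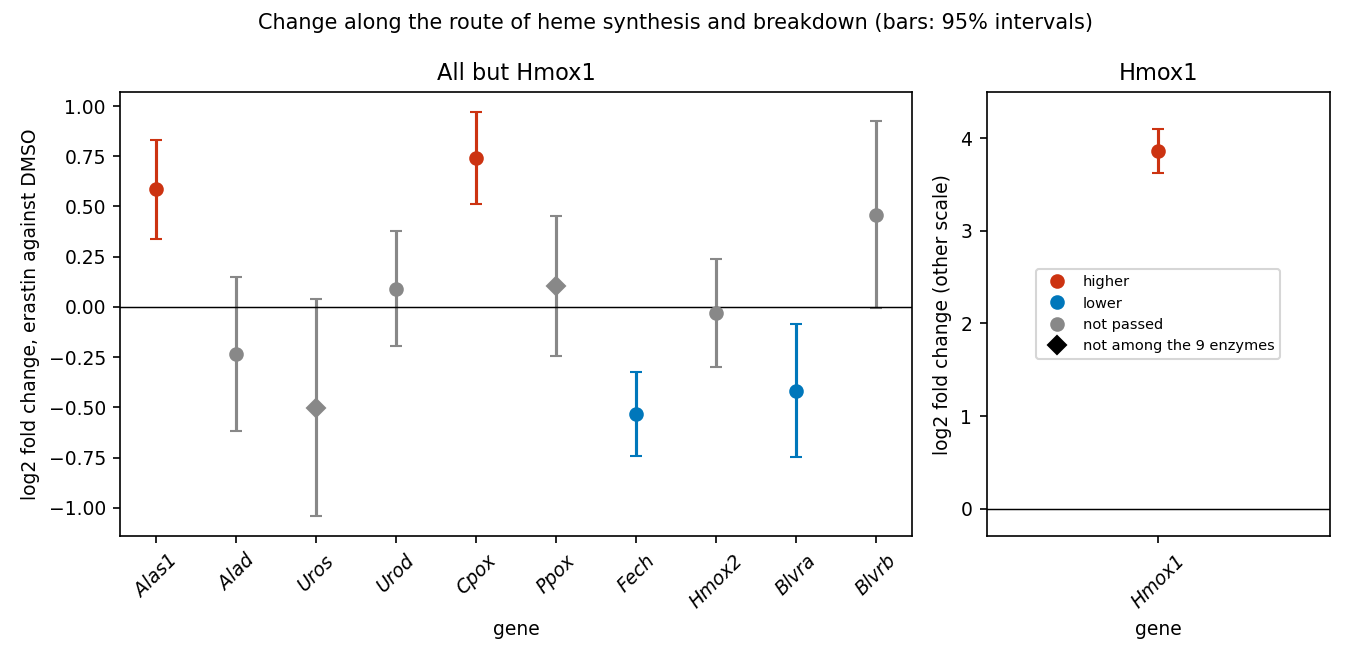
Log2 fold changes of erastin against DMSO along the route, with 95% intervals, for the 9 enzymes (circles) and Uros and Ppox (diamonds), with Hmox1 on its own scale. Red points passed as higher, blue as lower and grey did not pass; Alas1 (0.59) and Cpox (0.74) lie above 0, Fech (-0.53) and Blvra (-0.42) below it, and Hmox1 reaches 3.86.

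Of other synthesis genes, Uros, which closes the ring, had 13.1, 11.5 and 6.77 CPM in DMSO and 8.71, 6.29 and 7.16 CPM in erastin libraries (log2 fold change -0.50, edgeR adjusted p = 0.125), and passed as lower only without DMSO replicate 3 (-0.73, edgeR adjusted p = 0.0154). Ppox, the penultimate enzyme, had 15.4, 12.6 and 13.1 CPM in DMSO and 13.8, 14.8 and 15.6 CPM in erastin libraries (edgeR adjusted p = 0.637). Alas2, the erythroid form of the first enzyme, had at most 1 read in any library and was not tested. Neither tested gene passed with all libraries.

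Start regions are shown for Cpox and Alas1, the synthesis genes that rose, and for Blvra, the only gene among those with a listed window that held an antioxidant response element core. Windows of 300 bases (250 before and 50 after a RefSeq start, GRCm38.p6) were listed for 7 of the 9 genes, 12 windows in all; Hmox1 and Fech had none in the table. The letters searched, on both strands, were TGACNNNGC (core of the antioxidant response element, the site of NRF2 and BACH1), TGATGNAA (core of the element bound by ATF4 with C/EBP factors) and GCGCA followed after 1 base by GCGC (palindrome of nuclear respiratory factor 1, Nrf1). Capitals mark matches. The lines below give first the 250 bases before the Cpox start (chr16:58669958-58670207, plus strand), which held no match. Then come both Nrf1 matches of Alas1 with 5 flanking bases on each side (chr9:106247940-106247959 and chr9:106247911-106247930, minus strand). They lay 224 and 195 bases before one start, and at an upstream start and 29 bases after it. Of the 250 bases before the downstream and the upstream Alas1 start, 235 and 250 overlapped annotated exons of any gene. The last line gives the antioxidant response core of Blvra (chr2:127070603-127070621, plus strand, 49 bases before the start).
Cpox: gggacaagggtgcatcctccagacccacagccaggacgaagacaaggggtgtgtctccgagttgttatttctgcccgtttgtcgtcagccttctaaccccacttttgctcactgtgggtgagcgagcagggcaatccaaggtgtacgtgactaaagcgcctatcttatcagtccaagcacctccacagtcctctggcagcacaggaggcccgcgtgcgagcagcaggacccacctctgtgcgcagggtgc
Alas1, upstream match: ggcgcGCGCGTGCGCgcggc
Alas1, downstream match: ccaagGCGCATGCGCggcgg
Blvra: gaattGCTCGGTCAaggct

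Among all 32851 windows of the table, 12.4% held the antioxidant response core, 3.97% the ATF4 core and 4.60% the Nrf1 palindrome. A match is a run of letters, and enhancers outside these windows were not searched. By gene, 14.0% of those in the table held the antioxidant response core in a window. Blvra, with that core, was marginally lower with erastin. Alas1, with the Nrf1 matches, and Cpox, without a match, were higher. Whether the matches bear on these changes was not tested.

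Levels can be ordered between genes only per length, here as CPM per kilobase of the longest GENCODE transcript. In DMSO libraries Hmox1 was highest, at 118 ± 4.59 CPM per kilobase (SD, n = 3), and the others lay between 18.7 ± 2.80 (Urod) and 8.69 ± 1.24 (Alad). Urod, Hmox2 and Alas1 overlapped in turn, as did Blvra, Cpox, Fech, Blvrb and Alad, with a gap only between Alas1 (14.4 ± 0.462) and Blvra (11.2 ± 0.331). In erastin libraries Hmox1 reached 1723 ± 352 CPM per kilobase, Alas1 came second at 21.6 ± 3.82, and Fech was lowest at 6.98 ± 0.219. There the chain Alas1, Urod, Cpox, Hmox2 and Blvrb overlapped from neighbour to neighbour, as did Blvra, Alad and Fech. With the union of all annotated exons as the length, Hmox1 stayed highest in both groups and Fech lowest in the erastin libraries, while Hmox2 came second in both.

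Ratios within a library do not depend on how libraries were scaled. The ratio of Hmox1 to Hmox2 per kilobase was 6.49, 8.67 and 7.19 in the DMSO replicates and 122, 129 and 80.7 in the erastin replicates. The inducible form thus exceeded the constitutive one in both groups, and the ratio was higher by 3.87 on the log2 scale with erastin, subject to the uncertainty in Hmox2. The ratio of Hmox1 to Alas1 was 7.99, 8.16 and 8.56 in DMSO and 85.3, 79.2 and 74.0 in erastin replicates, a difference of 3.27 on the log2 scale, with an SD of 0.051 in DMSO and 0.10 in erastin libraries. The ratio of Alas1 to Fech, the first and last enzymes, was 1.34, 1.66 and 1.30 in DMSO and 2.92, 3.79 and 2.60 in erastin replicates. That of Alas1 to Alad went from 1.41, 1.96 and 1.67 to 3.24, 3.70 and 2.08, with a narrow gap between the groups. The ratio of Blvra to Blvrb was 1.13, 1.87 and 0.901 in DMSO and 0.649, 0.590 and 0.755 in erastin replicates. In all 5 ratios the groups did not overlap, and the exact two-sided permutation test over the 20 arrangements gave p = 0.1 for each (0.1 after Benjamini-Hochberg adjustment over the 5), the smallest value that 3 against 3 libraries allow, so none can pass 0.05.

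**Figure D3:**
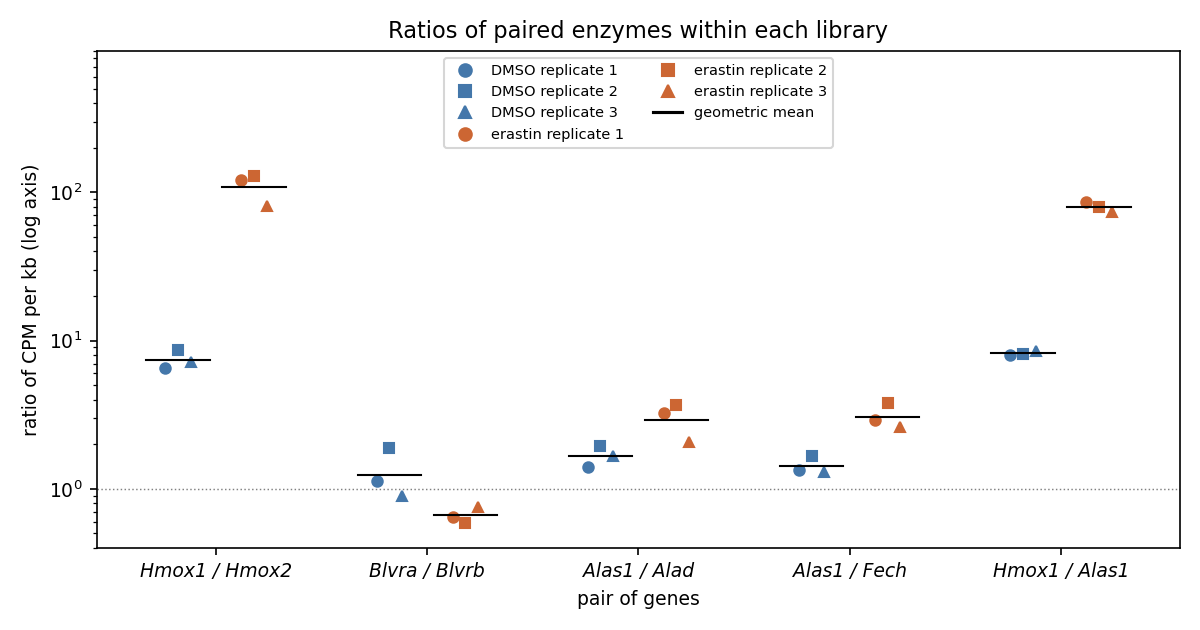
Ratios of CPM per kilobase between pairs of heme enzymes on a log axis, 1 point per library, with black lines at the geometric means. Hmox1 to Alas1 is the tightest pair within groups, at 7.99 to 8.56 under DMSO and 74.0 to 85.3 under erastin.

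The genes whose profile was most like that of Hmox1 were ranked by the root mean square distance of log2 CPM. These values were computed with a prior count of 2 and centred over the 6 libraries, leaving out genes whose mean count was under 50. Dusp10, a MAP kinase phosphatase, was nearest at 0.059 (Pearson's r = 0.9997 over 6 libraries, which fall into the treatment groups, so r mainly reflects that difference). It had 8.01, 8.48 and 8.80 CPM in DMSO and 116, 144 and 94.2 CPM in erastin replicates, with erastin replicate 2 highest and replicate 3 lowest, as in Hmox1. Slc7a11, whose product is the antiporter's light chain, followed at 0.196, then Fgf21 (0.340), Hspa1a (0.393) and Gdf15 (0.398). Fgf21 had only 2 to 4 reads in each DMSO library, where the prior count weighs most, so its place depends on that count. Its fitted fold was 29.4, against 14.6 for Hmox1. It met the mean count of 50 only through the erastin libraries (104 to 124 reads). Hspa1a has a near-identical copy, Hspa1b, so the levels of both Fgf21 and Hspa1a are uncertain.

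Genes around the route were taken from 6 lists of 67 genes, of which 62 were tested. Of these 22 were higher and 13 lower (56.5% passing), against the 21.6% and 21.5% of all genes given above. The lists were chosen with earlier results of these data known, so no conclusion is drawn from their shares. Alas2, Hpx, Cd163, Ugt1a1 and Ppargc1a had at most 12 reads in any library and were not tested.

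Among 16 mitochondrial partners of synthesis, 6 were higher, 2 lower and 8 did not pass, with a median log2 fold change of 0.044. Thus 50% passed, against 43.1% of all genes tested. Slc25a37 (mitoferrin-1), which brings iron into mitochondria, had 23.6, 22.0 and 24.4 CPM in DMSO and 66.3, 64.4 and 52.9 CPM in erastin libraries, a 2.63-fold rise (edgeR adjusted p = 2.07e-07). Slc25a28 (mitoferrin-2), chosen after its values were seen, did not pass (log2 fold change -0.12, edgeR adjusted p = 0.653). Lonp1, a mitochondrial protease that degrades ALAS1, rose 1.84-fold (edgeR adjusted p = 1.06e-06). Tmem14c, which carries protoporphyrinogen across the inner membrane, and Abcb10, a transporter needed for heme synthesis, had log2 fold changes of -0.36 and -0.33 (edgeR adjusted p = 0.0133 and 0.0199). After the GC and length offset both kept their direction (-0.25 and -0.27) but did not pass (edgeR adjusted p = 0.0509 and 0.0629). Both calls were also lost after this offset with the replicate number as a block. Tmem14c further lost its call without DMSO replicate 1, DMSO replicate 2 or erastin replicate 2, and so did Abcb10. Abcb10 also lost it without erastin replicate 1 and with scaling by total count (edgeR adjusted p = 0.0602). Tmem14c passed in 10 of the 15 alternatives and Abcb10 in 8.

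Of 8 tested genes for heme movement and binding, 2 were higher and 1 lower (37.5% passing, against 43.1% of all genes tested). Flvcr1 had 6.80, 6.38 and 5.53 CPM in DMSO and 13.4, 12.1 and 13.5 CPM in erastin libraries (log2 fold change 1.06, edgeR adjusted p = 0.000487), and its relative Flvcr2 had 2.49, 2.55 and 5.37 CPM against 8.01, 11.1 and 7.57 CPM (1.37, edgeR adjusted p = 0.00298). Flvcr1 has been described as a heme exporter at the cell surface, but heme export was not measured here. Lrp1, the receptor for heme bound to hemopexin, fell by 0.37 on the log2 scale (edgeR adjusted p = 0.00235).

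Of 5 tested partners of breakdown 3 were higher and 0 lower (Ftl1 and Slc40a1 did not pass). Thus 60% passed, against 43.1% of all genes tested. Abcc1, an export pump that can carry bilirubin, rose 1.42-fold (edgeR adjusted p = 0.000166), and Fth1, the ferritin heavy chain, rose 1.25-fold (edgeR adjusted p = 0.00398). Both differences were small beside that of Hmox1. The list's median was 0.26.

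Of 14 tested regulators of Hmox1 and Alas1, 8 passed as higher and 1 as lower, and the list's median was 0.48. The share passing was 64.3%, against 43.1% of all genes tested. Nfe2l2, which encodes the activator NRF2, rose 1.93-fold and Atf4 1.91-fold (edgeR adjusted p = 1.96e-07 and 1.66e-07). Nr1d1, which encodes the Alas1 repressor REV-ERB-alpha and was chosen after its values were seen, had 41.9, 42.9 and 42.3 CPM in DMSO and 104, 101 and 75.2 CPM in erastin libraries (log2 fold change 1.14, edgeR adjusted p = 1.71e-06). Every erastin library was above the DMSO libraries, with erastin replicate 3 lowest, as for Alas1. Eif2ak1, the heme-sensing kinase HRI, was lower (-0.29, edgeR adjusted p = 0.0386), but without any 1 of the libraries other than DMSO replicate 3 it did not pass (0.0572 to 0.133), nor with scaling by total count (0.115) or without the filter on low counts (0.112). It passed in 7 of the 15 alternatives.

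Of 17 heme-using proteins 9 passed as lower and 3 as higher, and the list's median was -0.43. The share passing was 70.6%, against 43.1% of all genes tested. Cyp51, a cytochrome P450 of sterol synthesis, went from 183, 177 and 149 CPM to 47.9, 59.3 and 63.8 CPM (log2 fold change -1.57, edgeR adjusted p = 5.57e-08), and Pxdn, a peroxidase of the extracellular matrix, fell by 0.88 on the log2 scale (edgeR adjusted p = 3.84e-07). Ptgs2 (COX-2) rose 6.37-fold (edgeR adjusted p = 4.07e-08) and Cat, the catalase gene, 1.39-fold (edgeR adjusted p = 0.000246). The list therefore held changes in both directions.

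**Figure D4:**
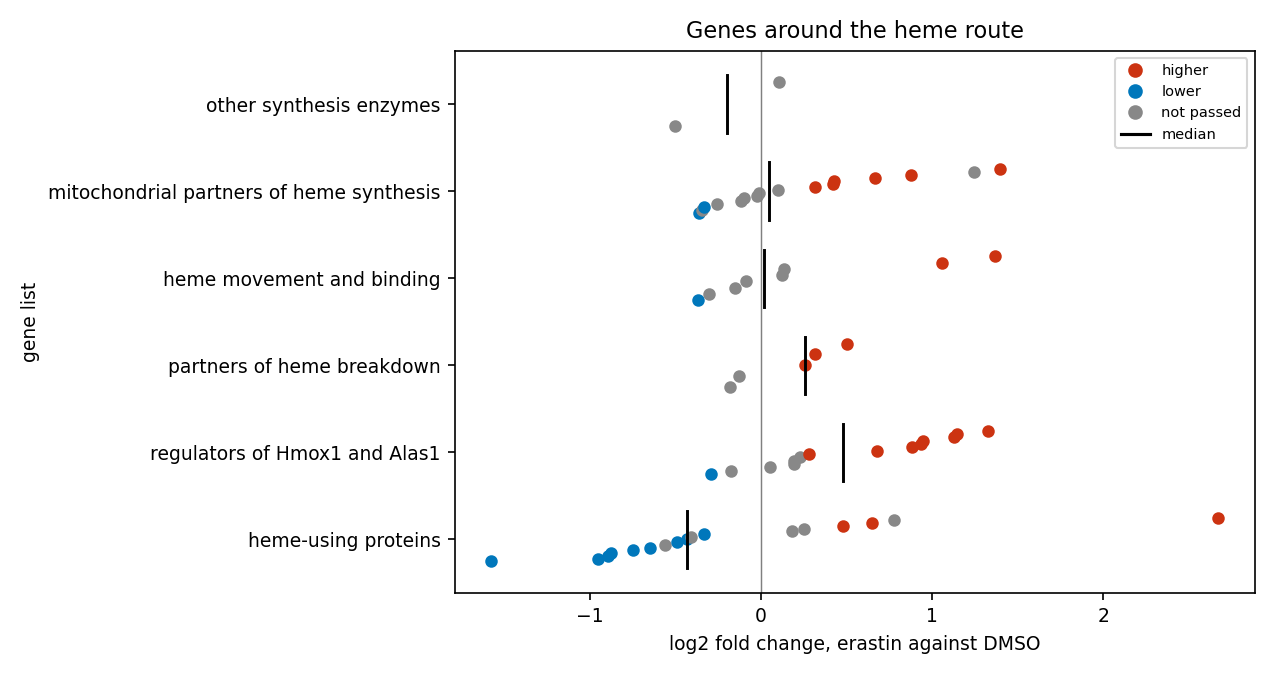
Log2 fold changes of erastin against DMSO for the 62 tested genes of 6 lists around heme synthesis and breakdown, 1 point per gene, coloured by whether it passed as higher, as lower or not, with black lines at the list medians. The medians run from -0.43 for heme-using proteins to 0.48 for regulators, and the rightmost point is Ptgs2 at 2.67.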

How the data were processed

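Values were raw read counts per gene, whole numbers in 1 column per library, as the authors deposited them. Per the submitters' processing notes HTSeq 0.9.1, SAMtools and the build mm10 were used. The aligner, annotation release and strand setting are not given in the sources used here. Columns were matched to libraries by the sample numbers in the descriptions, and 0 were left unused. Identifiers were matched without version to GENCODE M21 (GRCm38, the build named mm10), where 42462 of 43346 had a symbol. Coordinates, lengths and exon overlaps come from there and start regions from RefSeq.

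Genes were kept by filterByExpr (minimum count 10, total 15), scaled with TMM factors and tested with edgeR 4.0.16 in R 4.3.3 (glmQLFit and glmQLFTest, treatment as the only term). Intervals are 95% Wald intervals from the fitted weights and posterior quasi-dispersion. They cover the spread between libraries, and the floor of 3 counts covers counting error only, since no molecular identifiers are described. The test was also run on simulated counts, in which far fewer genes changed than passed here. That run does not measure the test's error rate in these data.

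Named were the 9 enzymes, 3 other synthesis genes, of each other list the 2 higher and the 2 lower genes with the smallest p-values, and the 5 profiles nearest to Hmox1. One item is not reported here. The enzymes and lists were chosen with earlier results of these data known. Libraries of a group differed beyond sampling noise (chi-square per degree of freedom 11.0 to 19.2), so each counted once. Alternatives were RLE and upper-quartile factors, total count, no filter, a filter of 1 CPM in 3 libraries, the replicate block, DESeq2 1.42.0, leaving out each library, and an offset for the GC content and length of transcripts fitted with mgcv 1.9.3. The offset together with the block was added after the data were seen.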

Additional observations from a re-analysis of the deposited data

How the results depend on the processing

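Hmox1, Alas1, Cpox and Fech kept their direction and passed in all 15 alternatives (log2 fold changes of 3.73 to 4.02, 0.44 to 0.70, 0.67 to 0.81 and -0.64 to -0.47). Alad and Urod kept their sign and never passed. The enzymes passing as lower numbered 2, and 1 (Fech) with total count scaling, without the filter, with the replicate block, with the GC and length offset plus block, and in every fit that left out a library (range 1 to 1), because Blvra then did not pass. Those passing as higher numbered 3 to 4. Hmox2, at -0.030, was 0.034 with total count scaling, 0.024 after the offset, 0.026 after the offset with the block, and -0.12 to 0.033 when a library was left out. The causes were not tested. Equal replicate numbers come only from the titles. Correlations of the deviations of libraries with equal numbers were -0.0055 to 0.040, against -0.045 to 0.035 for unequal numbers. Not every library correlated best with its own number. With 3 libraries per group, these correlations cannot show whether equal numbers shared a culture or a day. With the replicate block 5882 genes passed in place of 6028. The block ended the calls of Blvra (edgeR adjusted p = 0.0609) and Eif2ak1 (0.0545) and of no other gene chosen by the naming rule. Nr1d1, Slc25a28 and the cell type markers lie outside that rule, and their values under the alternatives are not given here. Total count scaling made 57.1% of the passing genes higher and upper-quartile factors 44.0%, against 50.2% with TMM factors, with medians over all genes of 0.065, -0.055 and -0.0014. The direction of the 5 ratio differences could not change in the 7 alternatives, so these do not test it. The groups did not overlap, so leaving out a library cannot reverse a difference. Another gene length cancels out of the difference between groups.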
